A study of Mus musculus with 4 samples.

Results

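The 10 genes of the VEGF and angiopoietin systems, Vegfa, Vegfb, Vegfc, Pgf, Flt1, Kdr, Flt4, Angpt1, Angpt2 and Tek, were described across the cell types of the mouse brain after stroke. They were chosen by symbol, and each symbol matched 1 row, so that the set was 10 of the 31253 genes counted. They gave 131937 of 358111838 unique molecular identifiers (UMIs, each counting 1 captured mRNA) in the cells kept.

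Cells came from the ipsilateral hemisphere, harvested 3 days after tMCAO, a stroke model that occludes the middle cerebral artery for a time and lets blood flow return. The Flox control group held 2 libraries from Htr2b flox/flox littermates, and the Ms4a3 cKO group held 2 libraries from mice whose genotype is given as Htr2b ERCre; Ms4a3-Cre, on a background labelled C57B6. Htr2b encodes the serotonin receptor 5-HT2B, and Ms4a3 is active in progenitors of monocytes and granulocytes, so that its Cre is meant for infiltrating myeloid cells and not for microglia. Per the design text, which names male and/or female adult mice, tamoxifen was given and a washout of 3 days passed before surgery. Which Cre allele acted cannot be read from the labels. No label ties the libraries of a group to separate animals, so p-values measure only the spread between these libraries.

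VEGF ligands act on receptor tyrosine kinases of endothelial cells. Kdr (VEGFR2) carries most of the signal for vessel growth and permeability, Flt1 (VEGFR1) binds Vegfa, Vegfb and Pgf and largely holds Vegfa back from Kdr, and Flt4 (VEGFR3) is the receptor of Vegfc. Angpt1 activates the endothelial receptor Tek (Tie2) and keeps vessels quiet, while Angpt2 competes with it and loosens them. In the ischemic brain the family is known for opening the blood-brain barrier and for later regrowth of vessels.

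The 4 receptors shared 1 home, the endothelial cell, and their promoters are shown for that reason. Each is 300 bases, from 250 before to 50 after the annotated start, taken from RefSeq on GRCm38.p6. GGAAG, 1 form of the core that ETS factors of endothelial cells bind, stands in capitals wherever it occurs on either strand. Other forms of this core, such as CCGGAA, are not marked. The Flt1 sequence is chr5:147725962-147726261 on the minus strand, Kdr chr5:75978406-75978705 on the minus strand, Flt4 chr11:49609429-49609728 on the plus strand and Tek chr4:94739039-94739338 on the plus strand.
Flt1: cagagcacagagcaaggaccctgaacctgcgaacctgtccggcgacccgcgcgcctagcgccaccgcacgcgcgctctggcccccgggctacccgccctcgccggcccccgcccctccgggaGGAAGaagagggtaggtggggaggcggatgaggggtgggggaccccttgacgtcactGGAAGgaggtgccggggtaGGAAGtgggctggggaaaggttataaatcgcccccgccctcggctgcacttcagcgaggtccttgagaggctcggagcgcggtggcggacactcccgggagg
Kdr: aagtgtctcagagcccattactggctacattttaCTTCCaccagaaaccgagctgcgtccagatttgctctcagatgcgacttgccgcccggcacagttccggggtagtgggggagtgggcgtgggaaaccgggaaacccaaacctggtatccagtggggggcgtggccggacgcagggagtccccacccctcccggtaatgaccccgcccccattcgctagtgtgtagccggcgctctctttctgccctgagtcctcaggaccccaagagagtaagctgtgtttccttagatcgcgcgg
Flt4: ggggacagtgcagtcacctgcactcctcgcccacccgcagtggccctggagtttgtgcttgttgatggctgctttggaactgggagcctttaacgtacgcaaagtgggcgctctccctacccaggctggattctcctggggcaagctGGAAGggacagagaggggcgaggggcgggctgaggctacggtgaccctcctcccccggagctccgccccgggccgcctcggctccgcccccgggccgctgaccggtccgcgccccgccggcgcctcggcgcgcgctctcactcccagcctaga
Tek: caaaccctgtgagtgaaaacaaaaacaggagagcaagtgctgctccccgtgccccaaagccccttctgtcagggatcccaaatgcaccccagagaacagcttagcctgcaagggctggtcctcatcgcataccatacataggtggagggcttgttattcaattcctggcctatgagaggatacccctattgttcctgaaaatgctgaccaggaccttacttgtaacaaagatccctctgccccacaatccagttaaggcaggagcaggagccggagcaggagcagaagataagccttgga
The Flt1 window held 3 matches, the Kdr and Flt4 windows 1 each and the Tek window 0, against 71.4% of 32851 RefSeq mouse promoters with at least 1. The longer form CCGGAA, which does not contain GGAAG but can overlap it on the same strand, was found once in Kdr and not in the windows of Flt1, Flt4 and Tek, against 14.9% of all promoters. A match is a description of letters and not a binding site. Of the 10 genes 8 had an entry in this table and 2 did not (Angpt1 and Angpt2).

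On GRCm38 (GENCODE vM21) Vegfa lies at chr17:46016993-46032369, Vegfb at chr19:6982473-6987651, Vegfc at chr8:54077606-54187096 and Pgf at chr12:85166635-85177790. Flt1 spans chr5:147561604-147726011, Kdr chr5:75932827-75978458, Flt4 chr11:49609263-49652739 and Tek chr4:94739289-94874976. Angpt1 spans chr15:42424723-42676977 and Angpt2 chr8:18690263-18741562.

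The 4 libraries held 77580518 to 105566650 UMIs and 13215 to 16267 cells, 59685 in all, with median depths of 3764 to 6599 UMIs per cell. Between libraries 13 barcode sequences recurred. Clustering gave 15 named classes. The genotype was compared in 7 of them, taken from a list of classes chosen in the design and with at least 50 cells in every library. Mural cells and oligodendrocyte precursors were on the list but had too few cells in a library. Dendritic-like cells, oligodendrocytes, border macrophages and neuroblasts had enough cells but were not on the list and were not tested. Flox control 1 stood apart in the vascular and myeloid classes: it held 135 endothelial cells against 586 to 1294 in the others, and 2832 of the 3217 cells of a macrophage cluster led by Gpnmb, Gdf3 and Cd36. Levels below are CPM, the gene's UMIs scaled to the total UMIs of the class in that library, in the order Flox control 1, Flox control 2, cKO 1 and cKO 2 unless stated, with mean ± SD over the libraries; a library with under 20 cells of a class was left out. Htr2b, the targeted gene, was at 99.1 and 123 TMM-scaled CPM in the Flox control and at 10.1 and 25.8 in the cKO monocyte-macrophages (log2 fold change -2.64, SE 0.48, adjusted p = 0.359 in edgeR and 2.4e-06 in DESeq2), and at 53.4 and 104 against 96.1 and 82.7 in microglia. A 3′ tag need not lie in the deleted part of the gene.

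The receptors were endothelial. Flt1 had 58.6% of its UMIs in cells named endothelial and a further 30.4% in vascular clusters of mixed markers, Kdr 57.2% and 19.2%, Flt4 66.2% and 25.9%, and Tek 65.2% and 24.1%. The endothelial class carried all 10 of its marker genes, among them Cldn5 and Cdh5, at a summed level of 10812 to 22535 CPM against 12.4 to 50.7 CPM in microglia. No level of a receptor outside the vascular classes came near the endothelial one.

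Flt1 stood at 4830, 2971, 3104 and 3732 CPM in endothelial cells, a mean of 3659 ± 848 (SD, n = 4). The vascular clusters of mixed markers were close to it, at 3037, 2358, 4056 and 3545 CPM. The next named class was the mural cell (pericytes and smooth muscle) at 318, 471 and 328 CPM in the 3 libraries with enough cells, and did not overlap the endothelial range. Among endothelial subtypes it was highest in capillary cells at 6203, 7457, 7093 and 6676 CPM. Arterial cells had 3648, 3500 and 3398 CPM and venous cells 1541, 1880 and 1675 CPM, in 3 libraries each, so the 3 subtypes followed in that order with no overlap. When every cell was thinned to 1000 UMIs, 94.7, 83.4, 88.5 and 92.5% of endothelial cells held a Flt1 UMI, against 0.21 to 2.47% of oligodendrocytes, which serve as a class that should lack it; before thinning these shares were 94.8 to 98.5% and 1.22 to 5.4%. Exact binomial 95% intervals of the endothelial shares ran from 80 to 97.8% and, like all intervals here, cover counting error only. The median depths were 2266 to 3416 UMIs in endothelial cells and 3556 to 7496 in oligodendrocytes.

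Kdr was at 997, 1050, 830 and 970 CPM in endothelial cells (962 ± 93.7, SD, n = 4), with no overlap with the next named class, mural cells, at 32.3 to 96.8 CPM. It did not follow the capillary gradient of Flt1. Capillary cells had 1109, 1124, 797 and 1260 CPM, venous cells 991, 634 and 801 CPM and arterial cells 920, 797 and 628 CPM, and these ranges overlapped. The sprouting cells, a subcluster (E13) led by Kit, Fscn1, Trp53i11 and Apln, had 1193 CPM in Flox control 2, the only library with enough of them: 169 of its 186 cells came from there. In the same library the sprouting cells had 1376 CPM of Flt1, below the 7457 CPM of capillary cells.

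Tek, the angiopoietin receptor, was at 463, 342, 262 and 302 CPM in endothelial cells (342 ± 86.7, SD, n = 4), and mural cells, next in the vascular classes, were at 5.39 to 14.3 CPM. Capillary cells held 587, 505, 309 and 290 CPM, overlapping the arterial range of 266 to 400 CPM. Flt4, best known from lymphatic vessels, was at 112, 86.9, 119 and 97 CPM in these cells (104 ± 14.4, SD, n = 4), and capillary cells were again highest at 193, 110, 200 and 122 CPM. The vascular clusters of mixed markers had 51, 50.2, 111 and 68 CPM of Flt4, and no other named class exceeded 8.25 CPM in any library. The summed markers of lymphatic endothelium were at 1.83 to 14.5 CPM in the endothelial class.

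**Figure D1:**
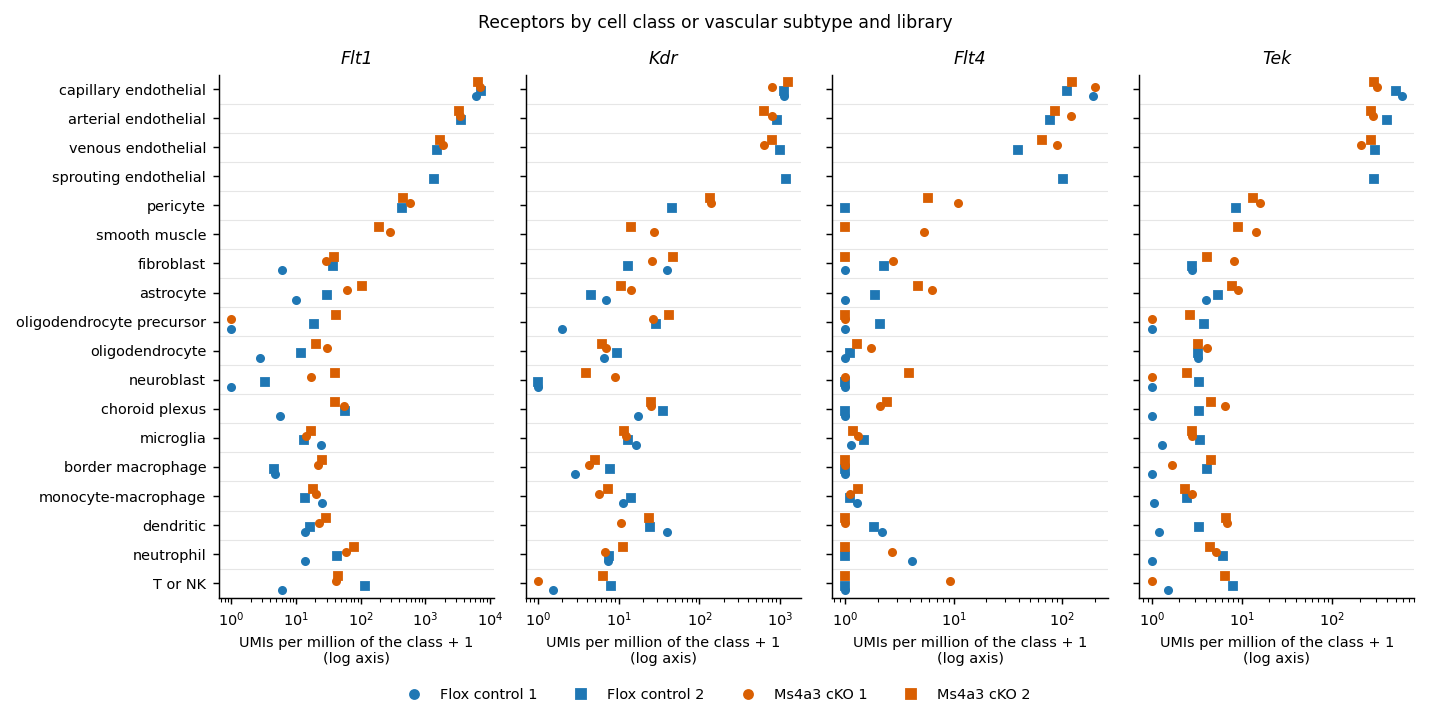
Each panel plots 1 receptor; each point is a library's CPM plus 1 on a log axis, for cell classes and vascular subtypes with at least 20 cells. The endothelial class as a whole is not drawn. It had 2971 to 4830 CPM of Flt1 and 830 to 1050 CPM of Kdr, above the other named classes in every library. Its subtypes are drawn instead, with Flt1 highest in capillary cells.

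Outside the vessel wall, low levels of Flt1 and Kdr were counted in every large class. Flt1 was at 23.6, 12.2, 13.2 and 16.2 CPM in microglia, 24.2, 12.9, 19.3 and 17.4 CPM in monocyte-macrophages and 12.6, 42.8, 57.7 and 79.6 CPM in neutrophils. Thinned shares of cells with a Flt1 UMI were 2.01, 0.82, 1.27 and 1.68% in microglia against 0.21, 0.54, 2.47 and 1.91% in oligodendrocytes, above them in the Flox control libraries and below them, at the level of background, in the cKO libraries. For Kdr they were 1.21 to 1.73% in microglia and 0.31 to 0.85% in oligodendrocytes, so that the microglial share was above the oligodendrocyte share in all 4 libraries, with 95% intervals that met in 3. Its level in microglia was 10.5 to 15.1 CPM.

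The balance of the 2 receptors differed between classes. It is given as Kdr in percent of Kdr plus Flt1 UMIs, to compare classes and not the genes' levels. In endothelial cells Kdr made up 17.1, 26.1, 21.1 and 20.6%. Microglia had 39, 49.4, 46.3 and 39.4%, above the endothelial value of the same library in all 4, with 95% intervals that did not meet. Oligodendrocytes, the class taken as background, had 75.9, 43.4, 17.2 and 21.3%: above the endothelial values in the Flox control libraries and near them in the cKO libraries. The microglial percentage was thus below that of oligodendrocytes in Flox control 1, met its interval in Flox control 2 and was above it in both cKO libraries. A balance unlike the endothelial one was shared by both classes in the Flox control libraries. It set microglia apart from oligodendrocytes only in the cKO libraries. Astrocytes had 40, 11, 18 and 8.52% and neutrophils 33.3, 13.2, 9.14 and 11.5%, below the endothelial value in 3 of 4 libraries, with Flox control 1 resting on 10 and 6 UMIs. Monocyte-macrophages varied from 19.2 to 50.6% between libraries, and were above endothelial cells in 3 of 4. Dendritic-like cells had 75.2, 59.8, 31.3 and 44.4%. The summed endothelial markers stood in the same order of libraries as Flt1 in astrocytes (28.1, 90.2, 143 and 201 CPM). In neutrophils they were at 37.8, 139, 132 and 213 CPM, lowest and highest in the same libraries as Flt1, with the other two in the opposite order. Their part in the Flt1 values was not tested.

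**Figure D2:**
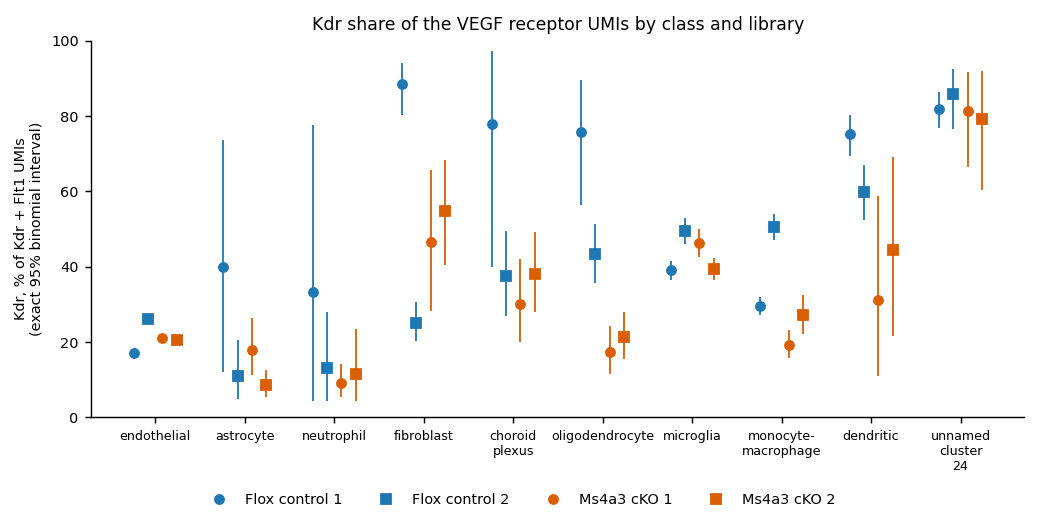
The vertical axis is Kdr as a percentage of Kdr plus Flt1 UMIs and each point is 1 library of a class with at least 6 such UMIs, with its exact 95% binomial interval. Endothelial cells sit at 17.1 to 26.1%, microglia at 39 to 49.4%, oligodendrocytes at 17.2 to 75.9% and the unnamed interferon-led cluster 24 at 79.3 to 85.9%.

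Vegfa, the main ligand of Kdr, was highest in astrocytes, fibroblasts and several infiltrating myeloid classes. Astrocytes had the highest mean at 254, 144, 178 and 212 CPM (197 ± 47.3, SD, n = 4). Fibroblasts followed at 96.3, 186, 95.9 and 158 CPM (134 ± 45.3), neutrophils at 78.7, 75.1, 149 and 131 CPM and dendritic-like cells at 50.7, 92.3, 131 and 109 CPM. Each of these neighbours in the order overlapped the next, so the order among them is within the spread of libraries.

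Monocyte-macrophages were lower by mean, at 17.4, 63, 106 and 108 CPM (73.6 ± 42.8, SD, n = 4), but held 47.2% of all Vegfa UMIs. They were 20.8% of cells, with median depths of 6316 to 10667 UMIs, so this share reflects only in part the size of the class. Microglia, the most abundant class with 22820 cells, had 3.15, 7.84, 3.28 and 3.44 CPM, below monocyte-macrophages in all 4 libraries. Thinned shares of cells with a Vegfa UMI were 16.5 to 23.8% in astrocytes, 1.76, 5.55, 8.24 and 9.37% in monocyte-macrophages, 0.31 to 0.53% in microglia and 0 to 0.93% in endothelial cells, the class taken as background for this gene. That class held a subtype with Vegfa: arterial cells, with 0 UMIs in the 20 cells of Flox control 2, had 54.4 and 57.1 CPM in the cKO libraries, with thinned shares of 2.86 and 6.74%, against 0 to 0.442% in capillary cells. Unthinned they were 29.6 to 44%, 9.66 to 27.2%, 1.42 to 2.69% and 1.48 to 2.84%. The microglial intervals overlapped those of endothelial and of capillary cells in every library, so the microglial shares could not be told apart from background. The capillary intervals, from 47 to 452 cells, reached up to 1.59 to 7.55% and could hardly have excluded shares this low.

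Vegfb, a ligand of Flt1 only, had most of its UMIs in the 2 macrophage-like populations, which also held most of all UMIs counted. Microglia held 50.2% of Vegfb UMIs and were 38.2% of cells. Monocyte-macrophages held 34.4% and were 20.8% of cells, with median depths of 6316 to 10667 UMIs against 4545 to 6187 in microglia. These shares thus reflect in part the size of the classes. The Vegfb level was 83.6, 68.5, 55.8 and 63.7 CPM in microglia (67.9 ± 11.7, SD, n = 4) and 87.2, 65.7, 28.5 and 40.4 CPM in monocyte-macrophages (55.5 ± 26.2), so the ranges overlapped. Choroid plexus epithelium had the highest mean, 72.5 ± 23.1 CPM, and astrocytes (61.5 ± 14.5) and border macrophages (61.4 ± 18.2) stood close by. Endothelial cells had 9.8 to 21.9 CPM and neutrophils 0 to 13.8 CPM.

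Vegfc, the ligand of Flt4, was highest in fibroblasts and, among endothelial cells, in arterial ones. Fibroblasts had 28.2, 27, 39.1 and 40.7 CPM (33.8 ± 7.14, SD, n = 4) and 39.5% of its UMIs. Endothelial cells had 7.32, 27.7, 11.3 and 13.6 CPM, and within them arterial cells had 86.6, 44.8 and 54.3 CPM in the 3 libraries with enough cells, above venous cells at 22.4, 7.98 and 17.6 CPM and capillary cells at 0 to 9.42 CPM. These arterial values rest on 41 UMIs in 207 cells.

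Pgf, the second ligand specific to Flt1, was the rarest, with 291 UMIs in all. Mural cells had 10.8, 20.6 and 39.4 CPM, and smooth muscle cells 43.9 and 66.6 CPM in the 2 cKO libraries. Endothelial cells had 0, 28.2, 3.68 and 4.63 CPM, and of the 104 endothelial UMIs 77 lay in the sprouting subcluster. In Flox control 2 the sprouting cells reached 68.3 CPM against 3.14 CPM in capillary and 0 in venous cells. Flox control 1 had no endothelial Pgf UMI, which allows up to 5.49 CPM at a limit of 3 UMIs.

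Angpt1, the activating ligand of Tek, was found around the vessel. Smooth muscle cells had 369 and 280 CPM in the 2 cKO libraries and pericytes 15, 69.6 and 94.8 CPM in 3 libraries. Fibroblasts had 150, 51.8, 40.8 and 73.6 CPM (79.1 ± 49.2, SD, n = 4). Astrocytes had 66.5, 96.8, 89.6 and 60.3 CPM (78.3 ± 17.6), which overlapped fibroblasts and lay above neuroblasts (9.48 to 23.5 CPM), microglia (0.31 to 1.53 CPM) and endothelial cells (1.61 to 5.12 CPM) in every library. Angpt1 was thus low in the cells that carried its receptor, with arterial cells, at 0, 16 and 31.4 CPM in 3 libraries, the highest of the endothelial subtypes by mean.

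Angpt2, the context-dependent antagonist, was found both beside and in the endothelium. Smooth muscle cells had 532 and 549 CPM in the 2 cKO libraries, and mural cells as a whole 97, 243 and 281 CPM. Fibroblasts had 223, 148, 115 and 177 CPM (166 ± 45.7, SD, n = 4) and 31.1% of its UMIs. Endothelial cells had 36.6, 135, 185 and 61.9 CPM (104 ± 67.7, SD, n = 4), overlapping fibroblasts. The sprouting cells of Flox control 2 had 262 CPM, against 31.4 CPM in capillary, 25.6 CPM in venous and 119 CPM in arterial cells of that library. In cKO 1 capillary and venous cells had 210 and 172 CPM, and in cKO 2 74.8 and 45 CPM, so that endothelial Angpt2 differed more between libraries than between these subtypes.

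**Figure D3:**
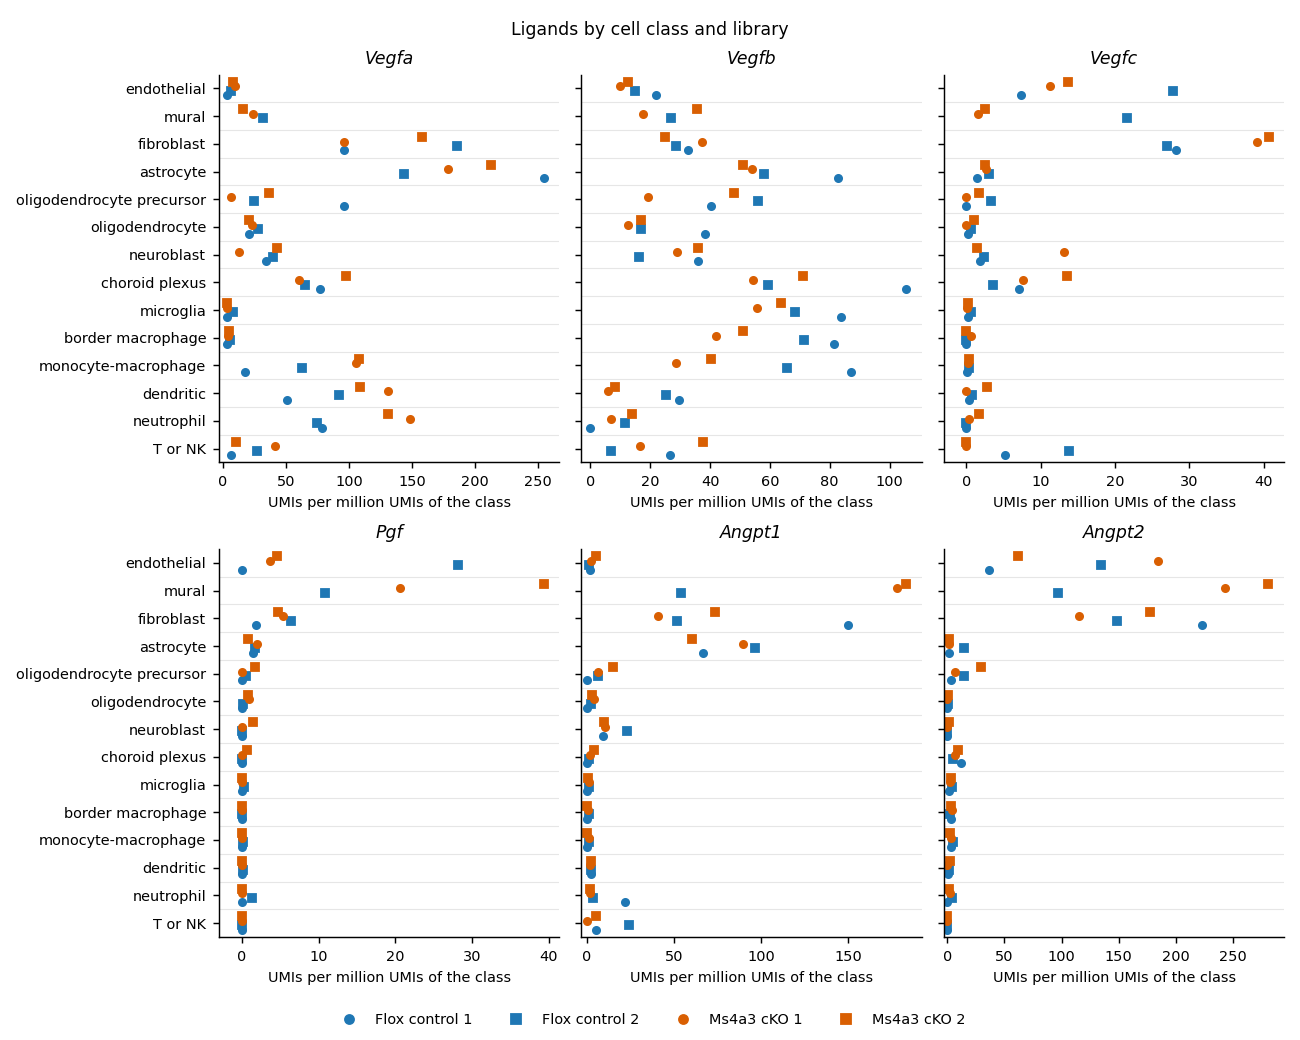
Each panel plots 1 ligand in CPM of the class (linear axis) for 14 cell classes, with 1 point per library with at least 20 cells. Vegfa is at 144 to 254 CPM in astrocytes and 3.15 to 7.84 CPM in microglia, Vegfb at 55.8 to 83.6 CPM in microglia, and Angpt1 and Angpt2 are highest in mural cells by mean.

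The genes whose pattern across the 15 named classes was most like that of a receptor were endothelial genes. By Pearson's r of log2(mean CPM + 1), over classes that share libraries and depth, Flt1 was most like Sox17 (0.98), Ptprb (0.97) and Sox18 (0.97), Flt4 like Robo4 (0.98), Ccm2l (0.98) and Sox18 (0.97), and Tek like Robo4 (0.97), Mmrn2 (0.97) and Flt4 itself (0.97). Kdr was most like Fmo2 (0.90), Doc2b (0.90) and Slc19a3 (0.89). Angpt1 was most like Gli3 (0.93), Slc30a10 (0.93) and Gm32618 (0.92), Angpt2 like Mill2 (0.94), Hspg2 (0.94) and Tmem204 (0.90), Pgf like Tbx3 (0.97), Lrrc32 (0.96) and Spaar (0.95), and Vegfc like Phldb2 (0.88), Eln (0.88) and Grb10 (0.87). Vegfb came nearest to St13 (0.86), Oxct1 (0.86) and Gaa (0.85). Vegfa had no close likeness: Mdh2 (0.78), Tkt (0.69) and Cs (0.69), enzymes of sugar metabolism, came first.

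The genotypes were compared class by class on UMIs summed per library, 2 against 2, with edgeR's quasi-likelihood test adjusted over all genes of the class. Of 44 tests of a member in a class 0 passed the threshold of 0.05, 7 had an unadjusted p under it, and DESeq2 called 2, both in monocyte-macrophages. With DESeq2 a further 37 stayed uncalled with the same sign, and the rest had no adjusted p. Genes without an adjusted p stay in the DESeq2 totals below as not called. Few genes of any kind passed in edgeR: 0% of the genes tested in endothelial cells, fibroblasts, microglia, monocyte-macrophages and neutrophils, 0.0438% in astrocytes and 0.0238% in choroid plexus. DESeq2 called 0.555% of genes in endothelial cells, 1.9% in fibroblasts, 1.68% in astrocytes, 0.25% in choroid plexus, 1.63% in microglia, 3.48% in monocyte-macrophages and 0.736% in neutrophils. An exact permutation test of a single gene could not go below p = 0.333 with these libraries, and none was run. Groups said below not to overlap would reach only that value, and the share of all genes without overlap was not counted. Values below are CPM scaled by TMM.

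Of the 7 members with an unadjusted p under the threshold 3 of 8 were in monocyte-macrophages, where 1558 of all 13147 genes had one, 2 of 6 in astrocytes (1928 of 11422 genes) and 2 of 2 in neutrophils (440 of 6796 genes). In monocyte-macrophages Vegfa was at 20.9 and 59.2 CPM in the Flox control and at 99.9 and 102 CPM in the cKO libraries. Both cKO values lay above both controls, and the lowest was Flox control 1. The log2 fold change was 1.33 (SE 0.50, adjusted p = 0.417, edgeR). Vegfb went the other way, at 105 and 61.7 CPM against 26.9 and 38.1 CPM, without overlap (log2 fold change -1.36, SE 0.33, adjusted p = 0.373 in edgeR and 0.0119 in DESeq2). Kdr was at 12.3 and 12.3 CPM against 4.33 and 6.08 CPM, also without overlap (log2 fold change -1.25, SE 0.27, adjusted p = 0.373 in edgeR and 0.0243 in DESeq2). The thinned shares of these cells with a Kdr UMI were 1.25, 1.16, 0.43 and 0.66% against 0.85, 0.72, 0.62 and 0.31% in oligodendrocytes, with intervals that overlapped in every library, so Kdr in this class could not be told apart from background at this depth. Flt1, at 29.1 and 12.1 against 18.2 and 16.4 CPM, overlapped (log2 fold change -0.25, SE 0.45). With no filter on low counts edgeR called Vegfb (adjusted p = 0.0188) and 1.65% of all genes.

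The monocyte-macrophages were not the same mixture in the 4 libraries. The class held 4 clusters. Cluster 5 (Gpnmb, Gdf3 and Cd36) and cluster 21, led by the same genes with the cell division genes Birc5 and Bub1, drew 2832 of 3217 and 607 of 715 cells from Flox control 1, while cluster 1 held most of the class in Flox control 2 (3572 cells) and in the cKO libraries (1802 and 1286). The summed microglial markers in the class ran at 8648, 4538, 2702 and 3602 CPM. The dissociation and stress genes ran at 3790, 4433, 5673 and 5260 CPM, the cKO libraries again on 1 side. In cluster 1 alone, led by Arg1, Thbs1 and Pf4, Vegfa was at 42.6 and 62.1 CPM against 88.7 and 101 CPM, with log2 fold change 0.79 (SE 0.19, adjusted p = 0.191, edgeR). In cluster 12 alone, led by Chil3 and Ccr2, it was at 88.6 and 85 CPM against 167 and 223 CPM, with log2 fold change 1.16 (SE 0.25, adjusted p = 0.124, edgeR). The cKO libraries were thus above the controls within both clusters, with a smaller difference in cluster 1 than in the whole class. Vegfb in cluster 1 was at 74.9 and 65.2 against 35.5 and 43.3 CPM, with log2 fold change -0.81 (adjusted p = 0.135, edgeR), and Kdr at 14 and 12.6 against 3.11 and 6.98 CPM, with log2 fold change -1.40 (adjusted p = 0.25, edgeR). The part of the stress and microglial genes in these differences was not tested.

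**Figure D4:**
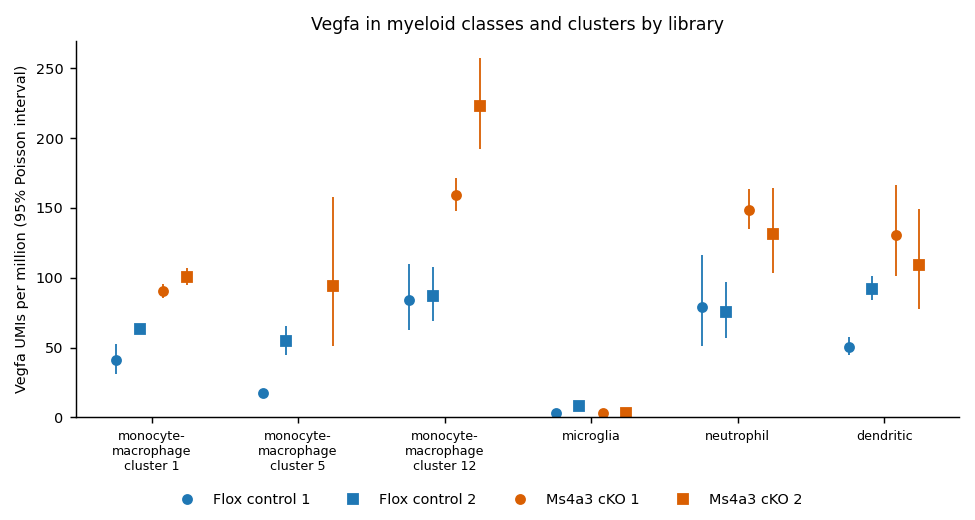
Vegfa in CPM (before TMM scaling) with exact 95% Poisson intervals of counting error, by library, in 3 of the 4 monocyte-macrophage clusters (1, 5 and 12) and in microglia, neutrophils and dendritic-like cells. Cluster 5 lacks a point for cKO 1, which had 14 of its cells, and microglia stay at 3.15 to 7.84 CPM in all 4 libraries.

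In microglia Vegfa was at 3.57 and 7.60 CPM in the Flox control and at 3.13 and 3.28 CPM in the cKO libraries, with Flox control 2 the high one (log2 fold change -0.80, SE 0.42, adjusted p = 0.564, edgeR). Vegfb was at 94.9 and 66.4 against 53.3 and 60.8 CPM and Kdr at 17.2 and 11.6 against 10.9 and 10 CPM, both lower in the cKO libraries without overlap, at adjusted p = 0.530 and 0.571 in edgeR. The difference between the 2 genotype effects, monocyte-macrophages minus microglia, was the comparison that a Cre meant for infiltrating cells implies. For Vegfa it was 2.24 on the log2 scale (SE 0.18, adjusted p = 0.22, edgeR), with microglial Vegfa shares that could not be told apart from background. For Vegfb it was -0.82 (SE 0.16, adjusted p = 0.33) and for Kdr -0.80 (SE 0.32, adjusted p = 0.495). Of 9 members tested 0 passed in edgeR and 3 had an unadjusted p under 0.05, beside 0% of all genes passing and 1502 of 14895 with an unadjusted p under 0.05; DESeq2 was not run for this term. For Htr2b the difference was -2.98 (SE 0.53, adjusted p = 0.316).

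These calls turned on single libraries of the control. Without Flox control 1 the Vegfa difference between the classes was 1.99 (adjusted p = 0.0135, edgeR) and 0.156% of genes passed, and without Flox control 2 it was 2.45 (adjusted p = 0.00689, edgeR), Vegfb passed too and 5.71% of genes did. Without Flox control 2, 5 of 7 members passed in monocyte-macrophages (Vegfa, Vegfb, Kdr, Flt1 and Tek), beside 32.6% of all genes there, and 6 of 8 in microglia (Vegfb, Flt1, Kdr, Angpt1, Angpt2 and Tek), beside 34.1%. In such fits Flox control 1 is the lone control and is assumed to vary like the cKO libraries.

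Neutrophils had Vegfa at 94.4 and 68.9 CPM in the Flox control and at 160 and 126 CPM in the cKO libraries, without overlap (log2 fold change 0.84, SE 0.35, adjusted p = 0.762, edgeR). Flt1 there was at 15.1 and 39.2 against 62.1 and 76.4 CPM, with log2 fold change 1.19 (SE 0.48, adjusted p = 0.762), beside the endothelial markers given above, whose groups overlapped.

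In endothelial cells none of 9 members tested passed in edgeR, 0 had an unadjusted p under 0.05 and DESeq2 called 0. Flt1 was at 5103 and 2885 against 3107 and 3704 CPM and Kdr at 1053 and 1019.5 against 831 and 963 CPM, with log2 fold changes of -0.23 (SE 0.37) and -0.21 (SE 0.23). Tek was at 489 and 332 against 262 and 300 CPM, lower in the cKO libraries without overlap (log2 fold change -0.54, SE 0.26, adjusted p = 0.782, edgeR). Subtypes were unevenly sampled: capillary markers summed to 7193, 3251, 1677 and 3406 CPM and venous markers to 766, 1319, 4193 and 1938 CPM, and their part in these values was not tested. Angpt2, at 38.6 and 131 against 185 and 61.5 CPM, overlapped (log2 fold change 0.42, SE 0.64), and without the sprouting cells its log2 fold change was 1.47 (SE 0.57, adjusted p = 0.609, edgeR). Pgf rested on Flox control 2: at 0 and 27.3 against 3.68 and 4.60 CPM its log2 fold change was -2.12 (SE 0.88, adjusted p = 0.741, edgeR), a fitted value that is no bound, and without Flox control 1 it passed (adjusted p = 0.0315, edgeR), beside 0.444% of genes.

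In fibroblasts Angpt1 was at 165 and 52.8 against 39.1 and 72.1 CPM, with Flox control 1 far above the rest (log2 fold change -0.95, SE 0.61, adjusted p = 0.624, edgeR). Vegfc was at 31 and 27.5 against 37.4 and 39.9 CPM, with log2 fold change 0.40 (SE 0.32) and Angpt2 at 246 and 151 against 110 and 173 CPM, with log2 fold change -0.48 (SE 0.36). Without Flox control 2, Angpt1 and Flt1 passed, 2 of 7 members beside 9.96% of all genes. In astrocytes Vegfa overlapped, at 270 and 142 against 179 and 211 CPM, with log2 fold change -0.06 (SE 0.34). Flt1 there was at 9.44 and 28.4 against 60 and 102 CPM, with log2 fold change 1.94 (SE 0.50, adjusted p = 0.213, edgeR), beside the endothelial markers given above, which stood in the same order of libraries, and with no filter on low counts it and Angpt2 passed, 2 of 10 members beside 5.91% of genes. Choroid plexus had no member without overlap of the groups, and its Flt1 passed only without Flox control 2, 1 of 6 members beside 2.93% of genes.

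**Figure D5:**
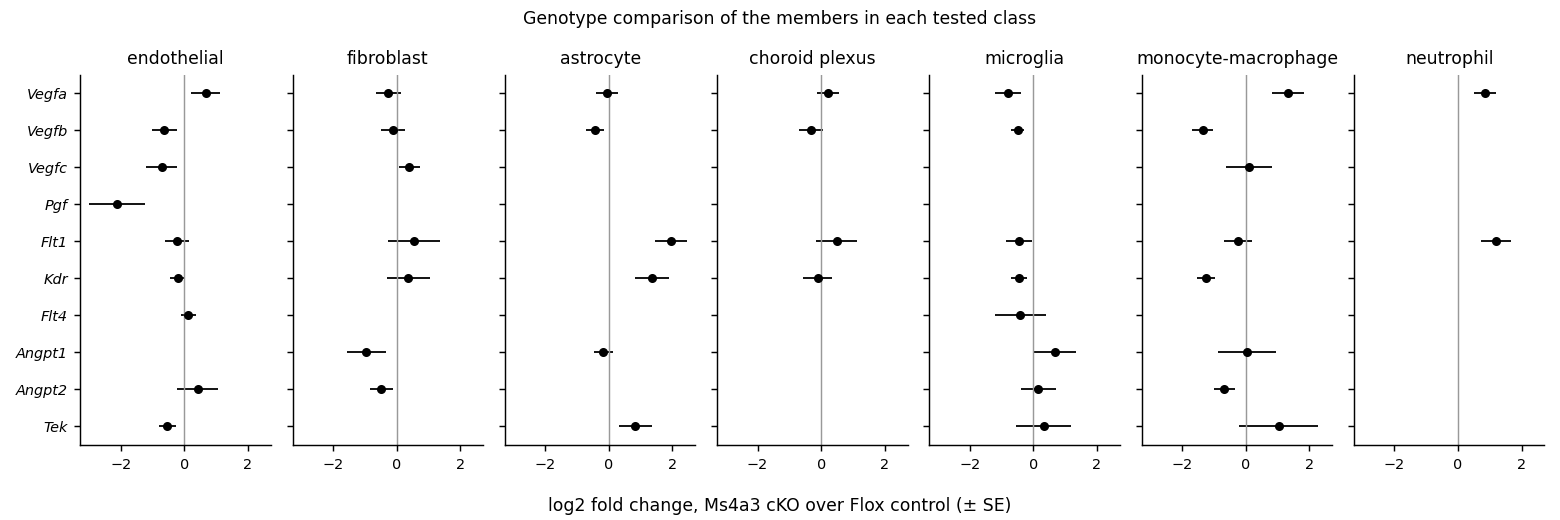
Each panel is 1 tested class and each point the log2 fold change of a member, cKO over Flox, with its standard error from edgeR; a gene with too few UMIs for the test has no point. Vegfa is at 1.33 and Vegfb at -1.36 in monocyte-macrophages, and 0 of the 44 passed the threshold after adjustment.

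The wider pathway was read from 5 lists: co-receptors and partners of the family, sprouting (tip cell) genes, hypoxia response genes, other secreted angiogenic factors, and genes that respond to VEGF receptor and Tek signalling. Of their members edgeR called 0 in either direction in any of the 7 classes. DESeq2 called 1 of 86 tested in endothelial cells (beside 0.555% of all genes), 7 of 79 in fibroblasts (1.9%), 2 of 80 in astrocytes (1.68%), 0 of 58 in choroid plexus (0.25%), 7 of 91 in microglia (1.63%), 7 of 87 in monocyte-macrophages (3.48%) and 0 of 47 in neutrophils (0.736%). In endothelial cells the sprouting list had 8 of 23 tested genes above 0 and 15 below, at a median log2 fold change of -0.49 against -0.01 for all genes. Without the sprouting subcluster, nearly all from Flox control 2, it had 11 above and 12 below at a median of -0.05. All marker genes that name this subcluster are on the list, so a shift on its removal was built in and is no further result. The partners split 4 to 6 (median -0.24), the hypoxia genes 11 to 11 (-0.04), the secreted factors 6 to 10 (-0.36) and the response genes 9 to 9 (0.01). The gene with the smallest p-value of each list was Nrp1, the VEGF co-receptor (282 and 180 against 112 and 102 CPM, log2 fold change -1.09, adjusted p = 0.587, edgeR), Aplnr (-3.87, at 9.66 and 34.8 against 2.94 and 0.48 CPM, highest in the library of the sprouting cells), Mif (-0.91), Wnt5a (0.73) and the immediate early gene Egr1 (-0.63).

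In monocyte-macrophages the list median was 0.33 for sprouting genes (14 of 18 above 0), 0.36 for response genes (14 of 18), 0.27 for partners (7 of 10), -0.30 for secreted factors (9 of 20) and -0.01 for the hypoxia genes (11 of 23), against -0.02 for all genes. The hypoxia genes were split in direction in this class, and their part in its Vegfa values was not tested. Hilpda, a lipid droplet protein induced by hypoxia, was at 127 and 133 against 283 and 239 CPM, with log2 fold change 1.01 (SE 0.16, adjusted p = 0.359, edgeR) and Slc2a1, the glucose transporter, at 8.43 and 9.05 against 18.4 and 14.5 CPM (0.91), while Epas1, which encodes HIF-2alpha, was at 115 and 60.6 against 21.8 and 37.2 CPM (-1.58). Of the other lists Sema3c (2.39), Nrp1 (-0.45), Rhoc (-1.51), Dusp5 (1.23), Pdgfa (-0.85), Igf1 (-3.41), Nr4a2 (1.62) and Klf4 (0.81) were among the 3 smallest p-values by list, by log2 fold change.

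In microglia the hypoxia genes had a median of -0.38, with 5 of 24 above 0, against -0.01 for all genes; the other lists lay between -0.06 and 0.13. Egr3, an early response gene, was at 36.1 and 40 against 11.2 and 11.8 CPM, with log2 fold change -1.73 (SE 0.16, adjusted p = 0.274, edgeR), Fscn1 at 62.5 and 57.1 against 27 and 31.8 CPM (-1.02) and Pdgfa at 114 and 110 against 69.7 and 64 CPM (-0.75). Egln3, an oxygen sensor of the HIF pathway, was at 19.7 and 6.02 against 2.20 and 2.89 CPM (-2.33). In neutrophils the hypoxia genes had a median of -0.50 with 4 of 20 above 0. Vegfa was higher in both cKO libraries of that class, and a link between the list and Vegfa was not tested. In fibroblasts, astrocytes and choroid plexus the list medians ran from -0.22 to 0.78, the highest being the 6 partners tested in astrocytes. One of these, the endothelial phosphatase gene Ptprb, was at 3.15, 19.7, 51.5 and 39.6 CPM there, beside the endothelial markers of that class given above, whose part was not tested.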

How the data were processed

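Brain cells of 4 libraries were profiled by 3′ single-cell RNA sequencing on the BD Rhapsody platform after digestion with papain and DNase, per the labels' protocols. The authors deposited UMI counts for each gene in each barcode, without normalization. The submitters' processing notes name fastp 0.24.0, STARsolo and mm10; STARsolo's version and the gene annotation were not given in the sources used here. No barcode in the deposited count files had under 500 UMIs. Papain digestion favours some cell types, so numbers of cells are not tissue proportions.

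Barcodes with at least 500 UMIs, 250 genes and under 20% mitochondrially encoded UMIs were kept (60942 of 63181). Scrublet, called through scanpy 1.11.5 with 6% doublets expected, removed 1257 doublets, which left 59685 cells. Clustering used 2000 variable genes without the members and the pathway list genes, 30 principal components, 15 neighbours and Leiden resolution 1 (leidenalg 0.10.2), and gave 28 clusters, named by hand from marker lists after their genes were seen. The endothelial, pericyte and smooth muscle clusters were clustered again together (18 subclusters), a step added because 1 cluster held endothelial and mural cells. The endothelial class, its subtypes and the mural cells come from this step. The vascular clusters of mixed markers are those of its subclusters that were given no single class name. Names are rebuilt and not the authors' own, and "dendritic" is used as dendritic-like.

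UMIs were summed per library and class. Genotypes were compared in those classes of the design's list that had at least 50 cells in every library. The test was the quasi-likelihood test of edgeR 4.0.16 (TMM scaling, the filterByExpr filter, Benjamini-Hochberg over all genes tested, threshold 0.05) in R 4.3.3. Genes under that filter were not tested. Standard errors were derived from the F statistic. The difference between 2 classes was an interaction with library as a block. Alternatives were DESeq2 1.42.0 and its size factors, no filter, a replicate block, each library left out, at least 1000 UMIs per cell, the 10% highest doublet scores removed and thinning to 2000 UMIs; fits of single clusters, other bounds of the endothelial class and a crossed block were added after the data were seen, as was the minimum of 20 cells for a level. The edgeR fit was tested on simulated counts. Members, pathway lists and tests were chosen with earlier results of these data known. All 10 members are named. Of each pathway list the 3 genes with the smallest p were taken in each class, and examples in the text come from these; the 3 most alike genes are those with the highest r among genes with at least 20 CPM in 1 class.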

Additional observations from a re-analysis of the deposited data

Results flagged for a closer look

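Some members lay above the Flox control in both cKO libraries of 1 class and below it in both of another. With 2 libraries against 2 such separations are frequent without any genotype effect. The share of all genes that separate was not counted, so these cases are listed and not read as a result. Vegfa had log2 fold changes (cKO over Flox) of 0.67 in endothelial cells, 1.33 in monocyte-macrophages and 0.84 in neutrophils, and of -0.80 in microglia, where its thinned shares could not be told apart from background. Of the endothelial Vegfa UMIs 17 of 40 and 20 of 34 in the cKO libraries lay in arterial cells, of which Flox control 1 had 0 and Flox control 2 had 20, and without arterial cells Vegfa was at 3.66 and 6.68 against 6.10 and 3.73 CPM, an overlap, with log2 fold change -0.24 (adjusted p = 0.971, edgeR). The difference between monocyte-macrophages and microglia was tested (adjusted p = 0.22, edgeR), and those of endothelial cells and neutrophils from microglia were not. Kdr had 1.35 in astrocytes, and -0.21 in endothelial cells, -0.46 in microglia and -1.25 in monocyte-macrophages. In the last of these its thinned shares could not be told apart from background. Tek had 0.83 in astrocytes and -0.54 in endothelial cells. The differences of astrocytes from the other classes were not tested, and the astrocyte values rest on 55 Kdr and 40 Tek UMIs in 4 libraries, beside summed endothelial markers at 28.1, 90.2, 143 and 201 CPM in that class.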

How the results depend on the processing

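Of the 44 member log2 fold changes 21 kept their sign whichever library was left out, among them Vegfa, Vegfb and Kdr in monocyte-macrophages and microglia, Vegfa in neutrophils and Tek and Kdr in endothelial cells. The other 23 changed sign. In each case named as kept, both cKO libraries lay on 1 side of both controls, so leaving 1 library out could hardly change the sign. The kept signs are therefore no further support. The share of all genes that kept theirs was not counted. Over the 4 fits with 1 library left out, Vegfa ran from -0.44 to 0.44 in astrocytes, -0.16 to 0.48 in choroid plexus and -0.69 to 0.22 in fibroblasts, Vegfb from -0.73 to 0.16 in choroid plexus and -0.40 to 0.14 in fibroblasts, Vegfc from -1.11 to 0.69 in endothelial cells and -0.10 to 0.31 in monocyte-macrophages, and Pgf from -2.71 to 6.61 in endothelial cells. Flt1 ran from -0.22 to 3.28 in choroid plexus, -0.58 to 0.24 in endothelial cells, -0.20 to 2.52 in fibroblasts, -0.95 to 0.25 in microglia and -0.75 to 0.52 in monocyte-macrophages, Kdr from -0.44 to 0.55 in choroid plexus and -0.29 to 1.47 in fibroblasts, Flt4 from -0.12 to 0.36 in endothelial cells and -1.05 to 0.66 in microglia, and Tek from -0.48 to 2.24 in microglia. Angpt1 ran from -0.49 to 0.10 in astrocytes, -1.56 to 0.078 in fibroblasts and -0.70 to 1.59 in monocyte-macrophages, and Angpt2 from -0.53 to 1.68 in endothelial cells and -0.40 to 1.09 in microglia. The difference between monocyte-macrophages and microglia ran from 1.99 to 2.45 for Vegfa, -0.98 to -0.67 for Vegfb and -1.59 to 1.70 for Flt4. With the highest doublet scores removed Angpt1 in astrocytes was 0.058 and Vegfb in fibroblasts 0.0063. In cluster 12 alone Flt1 was 0.35 and in cluster 1 alone Angpt1 was -0.49. Without arterial cells, an alternative chosen after seeing the data, Vegfa in endothelial cells was -0.24. The causes were not tested.

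The number of members called was 0, and 2 with DESeq2, 3 with no filter and 0 to 14 with a library left out, the 14 without Flox control 2. The number of genes called by edgeR, DESeq2 and edgeR with no filter was 0, 60 and 0 in endothelial cells, 0, 190 and 577 in fibroblasts, 5, 192 and 1183 in astrocytes, 2, 21 and 89 in choroid plexus, 0, 236 and 95 in microglia, 0, 458 and 358 in monocyte-macrophages and 0, 50 and 154 in neutrophils. With a library left out it ran from 0 to 309, 0 to 877, 1 to 48, 7 to 268, 0 to 5178, 0 to 4261 and 2 to 37 in that order; the highest counts came without Flox control 2, except in neutrophils, where they came without Flox control 1. Cells with at least 1000 UMIs gave 0 in choroid plexus and the stricter doublet removal 0 in astrocytes. Cluster 1 alone gave 34 and cluster 12 alone 12. Pathway list genes called numbered 1, 7, 2, 7 and 7 with DESeq2 in endothelial cells, fibroblasts, astrocytes, microglia and monocyte-macrophages. With no filter they numbered 19 in fibroblasts, 15 in astrocytes, 4 in choroid plexus, 3 in microglia, 8 in monocyte-macrophages and 1 in neutrophils. With a library left out they ran from 0 to 6 in endothelial cells, 0 to 21 in fibroblasts, 0 to 5 in choroid plexus, 0 to 56 in microglia and 0 to 40 in monocyte-macrophages.

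For same-numbered libraries the r of the deviations lay between -0.24 and 0.26 over the 7 classes. With a single deviation per genotype, and a different cell mixture in Flox control 1, this cannot tell whether equal numbers mark a shared batch. With the replicate block edgeR called 12 genes in astrocytes, 71 in choroid plexus, 2 of them on the pathway lists, and 0 in the other classes, and 0 members. A crossed block gave 131 genes in endothelial cells, 24 in astrocytes, 5 in choroid plexus, 9 in monocyte-macrophages and 2 in neutrophils, with 5 pathway genes in endothelial cells and 1 in monocyte-macrophages.

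Class levels moved by less than 1 SD between libraries in 150 of 150 cases with at least 1000 UMIs per cell, and in 139 of the 140 cases that gave a value with stricter doublet removal. Shares of cells depend on depth and moved in 122 of 150 cases without thinning and in 93 when thinned to 2000 UMIs. Depth limits Pgf, Flt4 and Vegfc outside the vascular and fibroblast classes, where most libraries hold only a few UMIs.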

Other observations

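Among cells that no marker list named, 2 clusters carried members of the family. Cluster 24, 556 cells led by the interferon-induced genes Ifit2, Rsad2, Ifit3 and Cxcl10, had Kdr at 115, 57.6, 45.2 and 78.8 CPM (Flox control 1 and 2, cKO 1 and 2), a mean of 74 ± 30.4 (SD, n = 4). Microglia had 10.5 to 15.1 CPM of Kdr and monocyte-macrophages 4.6 to 13.1 CPM, so that each library's value in cluster 24 was above its value in both. Kdr made up 82, 85.9, 81.4 and 79.3% of Kdr plus Flt1 UMIs there, against 17.1 to 26.1% in endothelial cells, and the summed endothelial markers were at 36.5 to 121 CPM, against 10812 CPM or more in endothelial cells. Tek, counted in 4 UMIs in cKO 1, had none in the other libraries of this cluster. The cluster carried microglial markers at 6723 to 17963 CPM and monocyte-macrophage markers at 11802 to 23615 CPM, and it stayed unnamed.

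Cluster 14, 1391 cells led by Syt4, Dusp10, Btc and Hspa1b, had Vegfa at 111, 193, 137 and 85.4 CPM (131 ± 45.9, SD, n = 4), a range that overlaps astrocytes and fibroblasts. Of its cells 847 came from cKO 1. Dendritic-like cells carried Kdr at 9.76 to 38.8 CPM, highest in the Flox control libraries.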
